A study of Mus musculus with 6 samples.

Results

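Integrins are the adhesion receptors with which thymocytes hold on to stroma, matrix and other cells, and 8 of their chains were followed here in cultured fetal mouse thymus exposed to a dioxin. The chains were Itgae (CD103), Itgb7, Itga4, Itga5, Itga6, Itgal, Itgb1 and Itgb2. They were taken by gene symbol from the probe sets annotated to a single gene, which gave 17 of 20380 such probe sets and 8 of 12393 genes. Each gene was read from its brightest probe set on average over the 6 arrays, and the remaining probe sets of the 4 genes with more than 1 were checked against it.

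Each integrin is a pair of 1 alpha and 1 beta chain, and the partner decides what the pair binds. The alpha-E chain (Itgae) pairs with beta-7 and binds E-cadherin on epithelium. Alpha-4 pairs with beta-7 or beta-1 and binds VCAM-1, MAdCAM-1 and fibronectin, while alpha-5 and alpha-6 with beta-1 bind fibronectin and laminin. Alpha-L with beta-2 forms LFA-1, the leukocyte receptor for ICAMs, and beta-2 also serves the myeloid integrins with alpha-M and alpha-X. In the thymus, these receptors are known for guiding progenitors through stroma and matrix, and CD103 marks sets of thymocytes, gamma-delta T cells and dendritic cells.

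All samples came from C57BL/6 fetuses. Thymus lobes of gestation day 15 were kept in organ culture for 6 days and are labelled as day 21 after conception. The medium, renewed every 2 days, held either 10 nM TCDD (2,3,7,8-tetrachlorodibenzo-p-dioxin), which activates the aryl hydrocarbon receptor (AHR), or the solvent dioxane, for which 0.1% by volume is labelled in thymocytes only. CD4-CD8- (double-negative) cells were taken either from ground lobes (thymocytes) or from the buffer flushed off them (emigrants), enriched with CD4 and CD8 beads to a labelled purity above 95%, and pooled, so a sample is not 1 animal. There was 1 thymocyte array per treatment and there were 2 emigrant arrays per treatment, numbered 1 and 2 in the labels. The 3 pairs below are a TCDD and a dioxane array of the same source and number, and no source says that a pair shares a culture or that arrays of a group come from separate cultures. The p-values therefore reflect only how far these arrays scatter, which may be technical.

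Values are RMA levels on the log2 scale, so that 1 unit is a 2-fold difference. The highest of 15 bacterial control probe sets read 4.32 to 4.92 depending on the array, and a value under that of its array was taken as not distinguishable from background. This limit is strict, since the median control read 3.04 to 3.30 and the median of all probe sets 4.84 to 4.88. The controls were assumed, not known, to have no spiked target. The emigrant arrays numbered 1 stood apart. Their mean level over 9 measured T-lineage markers was 5.92 with dioxane and 5.81 with TCDD, against 6.70 to 9.27 on the other 4 arrays, and over 8 neutrophil markers it was 9.09 and 10.28 against 5.37 to 7.21. Of the 9 T-lineage markers, 6 were above the highest control on all arrays, among them Cd3d at 7.48 to 10.17, while Thy1 was above it on 5, Rag1 on 3 and Cd2 on 1 of the 6 arrays. Of the genes sorted against, Cd4 read 4.93 to 5.19, above the control on all 6, Cd8a 4.62 to 5.50, above it on 4, and Cd8b1 lay under it on every array. The gap between the 3' and 5' actin probe sets, which widens as RNA shortens, was larger with TCDD in each pair (4.15 against 3.48, 3.77 against 3.06 and 3.36 against 3.01). The same gap for Gapdh was smaller with TCDD in thymocytes (5.86 against 6.10), larger in emigrants numbered 1 (5.60 against 4.75) and close in emigrants numbered 2 (4.75 against 4.69).

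**Figure D1:**
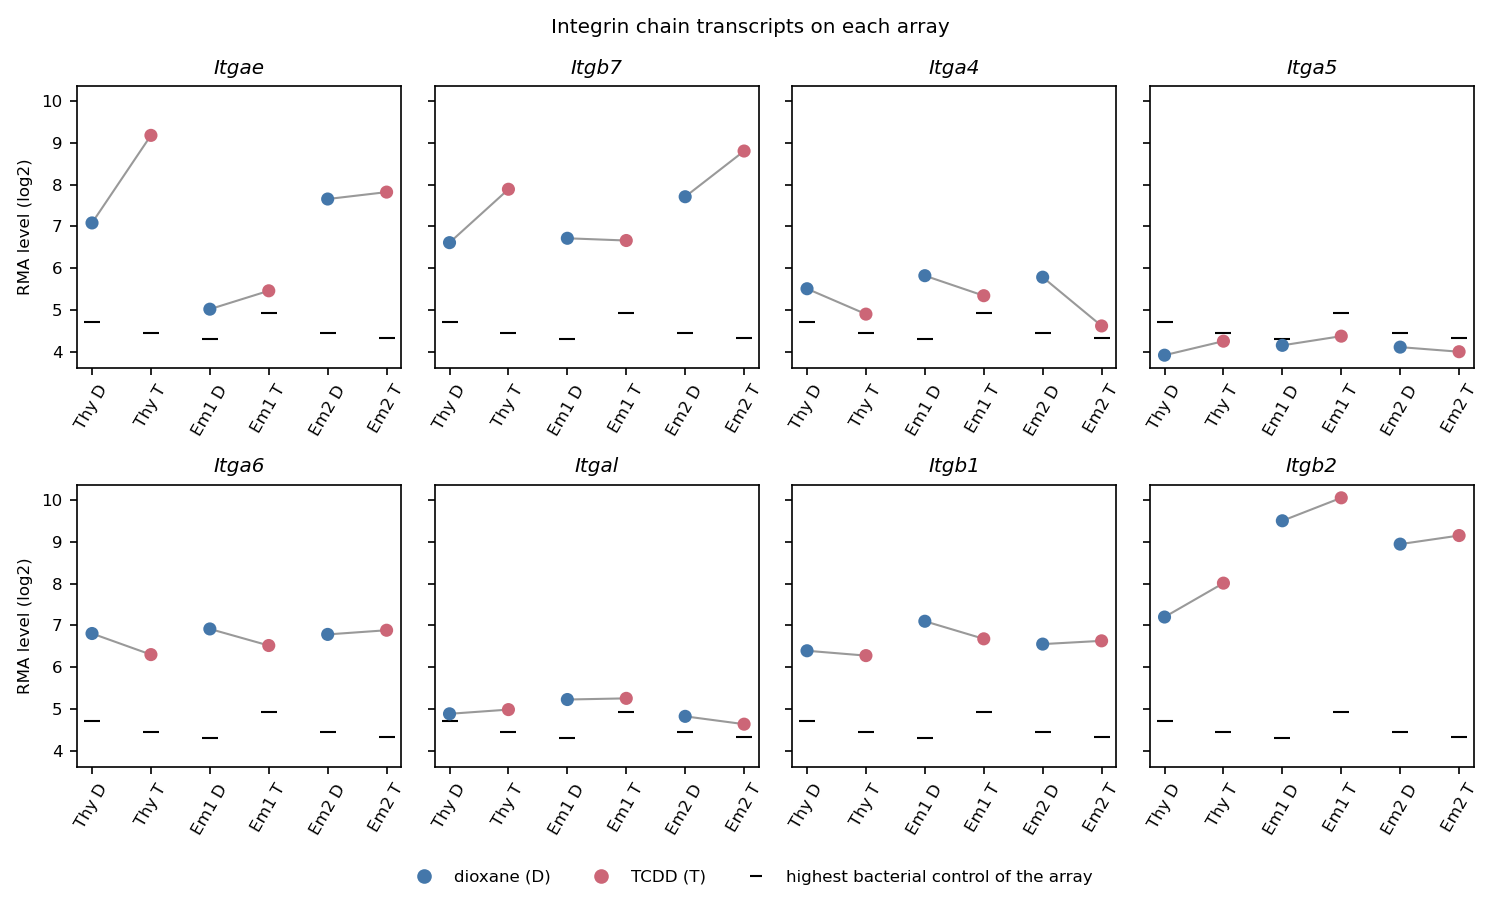
RMA level (log2) of the 8 integrin chains on each array, thymocytes (Thy) and emigrants numbered 1 and 2 (Em1, Em2), with dioxane (D, blue) and TCDD (T, red). Grey lines join the arrays of a pair and black dashes mark the highest bacterial control of each array. Itgae spans 5.02 to 9.18, and Itga5 lies under the control dash on every array.

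Of the 8 chains, 7 were above the highest bacterial control of every array and Itga5, the alpha chain of the fibronectin receptor, was above it on none. The chains differed widely in how much they varied. Itgae had a standard deviation over the 6 arrays of 1.56 log2 units, and 98.9% of genes varied less. Itgb2 (1.04, above 96.7% of genes) and Itgb7 (0.89, above 95.2%) came next. Itga4 had 0.48, and the remaining 4 chains varied by 0.17 to 0.29.

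The first question was whether integrin chains differed between TCDD and dioxane. No chain passed: limma called 0 of 8 members and 0 of 12393 genes (0%) at an adjusted p under 0.05 over both cell sources, with 659 genes at an unadjusted p under 0.05 (5.32%), and Itga4 the single member among these. In emigrants alone it also called 0 genes (0%), with 255 at an unadjusted p under 0.05 (2.06%) and no member among them. Within the pairs, Itgae and Itgb2 were higher with TCDD in all 3, a pattern shown by 15.4% of genes, and Itga4 was lower in all 3, as were 17.4% of genes. That is 3 of 8 members with 1 sign throughout, beside 32.8% of all genes. The 2 TCDD comparisons share the emigrant arrays, so they are not independent of each other.

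Itgae, the CD103 chain, had its highest level in TCDD thymocytes. Its level in thymocytes was 7.08 with dioxane and 9.18 with TCDD. The number-1 emigrant arrays read 5.02 and 5.46, and the number-2 arrays 7.66 and 7.82, again with dioxane first. The thymocyte pair thus carried most of the difference, and the emigrant arrays were set apart by their number rather than by treatment, with number 2 above number 1 by 2.64 with dioxane and 2.36 with TCDD. TCDD and dioxane arrays overlapped.

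The pair differences of Itgae were 2.10, 0.44 and 0.17 log2 units (mean 0.90 ± 1.04, SD, n = 3 pairs). Over both sources the limma estimate was 0.90 ± 0.95 (SE, adjusted p = 0.999), and in emigrants 0.30 ± 1.18 (adjusted p = 1). The estimate over both sources fell to 0.30 without either thymocyte array and reached 1.82 without the dioxane emigrant array numbered 2, and the emigrant estimate turned to -1.02 without the dioxane array numbered 1 and to -0.88 without the TCDD array numbered 2. By group the order was TCDD thymocytes (9.18), dioxane thymocytes (7.08), TCDD emigrants (6.64 ± 1.67, SD, n = 2) and dioxane emigrants (6.34 ± 1.86, SD, n = 2), of which the last 3 did not differ beyond the spread of the emigrant arrays.

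Other transcripts differed on the thymocyte array with the highest Itgae. There the mean over 7 measured markers of NK and innate lymphoid cells was 7.50 against 6.61 with dioxane, with all 7 above the highest control with TCDD and 6 with dioxane. Id2, an inhibitor of E proteins that innate lymphoid cells need, measured 8.55 against 5.87, and the defining NK receptor Ncr1 4.66 against 4.90. The mean over the T-lineage markers was lower, at 8.12 against 9.27. Of these, Dntt (-3.25) and Rag1 (-2.70) differed most, and Cd3g alone was higher with TCDD (0.47). In such pooled samples a different share of cells and a different amount of transcript per cell cannot be told apart, and the part of these markers in the Itgae difference was not tested.

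**Figure D2:**
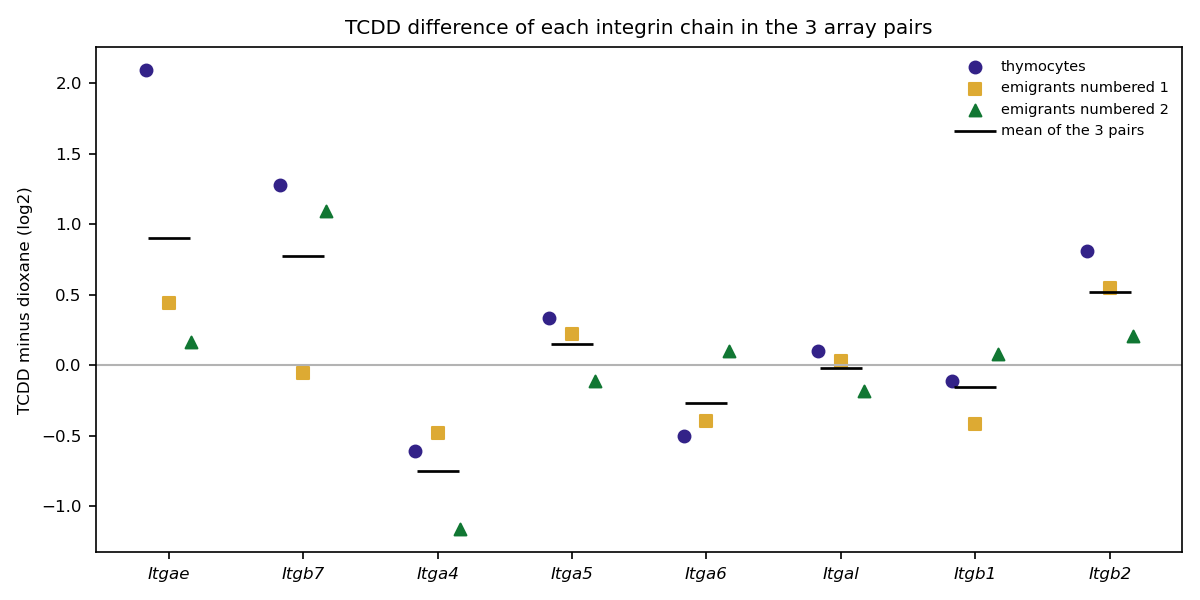
TCDD minus dioxane (log2) for each integrin chain in thymocytes (circles), emigrants numbered 1 (squares) and emigrants numbered 2 (triangles), with a bar at the mean of the 3 pairs. Itgae has its highest point in thymocytes (2.10), Itgb7 stands above 1 in thymocytes and in emigrants numbered 2, and all 3 points of Itga4 lie below 0.

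Itgb7, the beta partner of Itgae and of Itga4, was at least 2-fold higher with TCDD in 2 of the 3 pairs. Its thymocyte level was 6.61 with dioxane and 7.89 with TCDD, and its levels in emigrants numbered 2 were 7.71 and 8.80. In emigrants numbered 1 both levels were low and alike, at 6.72 and 6.66. The differences were 1.28, 1.09 and -0.05, and the limma estimate over both sources was 0.77 ± 0.62 (SE, adjusted p = 0.999). In thymocytes, Itgae and Itgb7 were the 2 of 8 members that differed at least 2-fold, beside 5.62% of all genes, both upward (2.83% of genes, beside 2.79% downward), with no replicate to set against it. In emigrants numbered 2 the members past 2-fold were Itgb7 and Itga4 (5.59% of all genes), and in emigrants numbered 1 there was none (6.22% of all genes). The TCDD array numbered 2 also differed strongly in some markers of cell types from its dioxane array. Rag1 measured 3.61 there against 9.99, Dntt 5.61 against 11.96, the platelet factor gene Pf4 11.35 against 6.52, and the collagen gene Col3a1 9.67 against 5.18. These had the largest differences of their lists. The median difference was -0.08 over 5 measured megakaryocyte and platelet markers and 0.17 over 9 markers of stroma, endothelium and epithelium. The mean over the T-lineage markers was 6.70 against 8.78, carried largely by Rag1 and Dntt, and their median difference was -1.1. Cd3e (8.00 against 7.68) and Cd3g (9.08 against 8.97) were slightly higher with TCDD, and the rest of that list was lower. The part of the markers named here in the differences of Itgb7 and Itga4 was not tested. Over both sources, the Itgb7 estimate was 1.19 without the 2 emigrant arrays numbered 1 and 0.61 without the 2 numbered 2. Each of these fits leaves 1 array per source and treatment. In emigrants alone, the Itgb7 estimate was -0.55 without the TCDD array numbered 2. TCDD is an AHR agonist, and the estimates over both sources of Itgb7 (0.77) and Itga4 (-0.75) differed in sign, though neither was called. In emigrants numbered 1 both genes were lower with TCDD (-0.05 and -0.48). The sequence upstream of both genes is shown for this reason only. Windows of RefSeq (GRCm38.p6), 250 bases before an annotated start, were matched for 4 of the 8 members, Itgb7, Itga4, Itga5 and Itgb1, and not for Itgae, Itga6, Itgal and Itgb2. Each sequence is the coding strand, and capitals mark a match to the Runx core TGTGGT or its complement ACCACA. Itgb7 lies at chr15:102231936-102232185 on the minus strand and Itga4 at chr2:79255176-79255425 on the plus strand.
Itgb7: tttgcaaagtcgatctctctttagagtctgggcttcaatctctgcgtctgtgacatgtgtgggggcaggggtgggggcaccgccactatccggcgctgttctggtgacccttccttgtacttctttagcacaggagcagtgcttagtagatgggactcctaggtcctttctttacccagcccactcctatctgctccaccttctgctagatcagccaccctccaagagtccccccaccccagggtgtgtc
Itga4: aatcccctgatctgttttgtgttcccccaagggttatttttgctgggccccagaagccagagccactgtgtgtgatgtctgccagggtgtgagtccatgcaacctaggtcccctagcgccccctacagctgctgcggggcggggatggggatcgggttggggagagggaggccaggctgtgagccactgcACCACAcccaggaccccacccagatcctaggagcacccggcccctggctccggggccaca
The core of the AHR response element, GCGTG, and its complement CACGC were searched on both strands and matched none of the 4 windows, which says only that these letters are not in these windows. They occur in 28.2% of the 32851 windows of that length in the RefSeq table. The Runx core can share 2 letters with GCGTG, which had no match here. It matched once, in Itga4 with its first base at position -60 from the start, and occurs in 14% of all windows. RUNX factors are known regulators of integrin genes in T cells, but a match is a description of the letters and no evidence of binding.

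Itga4, the alpha-4 chain, was the one member whose 3 TCDD arrays all lay below the 3 dioxane arrays, as did those of 4.61% of all genes. The levels were 5.51 with dioxane and 4.90 with TCDD in thymocytes, 5.82 and 5.34 in emigrant pair 1, and 5.79 and 4.62 in emigrant pair 2. The dioxane arrays covered 5.51 to 5.82 and the TCDD arrays 4.62 to 5.34, not far above the highest controls of 4.32 to 4.92. The limma estimate was -0.75 ± 0.23 over both sources (SE, adjusted p = 0.811) and -0.82 ± 0.32 in emigrants (adjusted p = 1). Leaving out single arrays moved the first between -0.94 and -0.52 and the second between -1.18 and -0.46. The TCDD arrays were also those with the larger gap for actin (4.15, 3.77 and 3.36 against 3.48, 3.06 and 3.01), though not for Gapdh in thymocytes (5.86 against 6.10), and the part of RNA quality in the Itga4 difference was not tested. The remaining probe sets of Itga4 (1427615_at and 1450155_at) were under the highest control on all arrays, with estimates over both sources of -0.19 and -0.44. Neither was lower with TCDD in all 3 pairs. The first differed by 0.16 in emigrants numbered 1 and the second by 0.11 in thymocytes.

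Among the beta-2 family, Itgb2 was higher with TCDD in each pair, at 8.01 against 7.20 in thymocytes, and at 10.05 against 9.50 and 9.15 against 8.95 in the emigrant pairs 1 and 2. Its differences of 0.81, 0.55 and 0.21 averaged 0.52 ± 0.30 (SD, n = 3 pairs), smaller than the gap between the sources, so that TCDD and dioxane arrays overlapped (limma 0.52 ± 0.31, SE, adjusted p = 0.999). The emigrant estimate of 0.38 was -0.07 without the TCDD array numbered 1. Markers of macrophages and dendritic cells were higher with TCDD in all 11 measured members by that estimate over both sources (median 0.68). Of all genes, 47.2% were above 0 by it. Their mean level was 5.92 and 6.11 in thymocytes, 8.62 and 9.28 in emigrant pair 1, and 7.29 and 8.71 in emigrant pair 2, each with dioxane first. In the thymocyte pair, where the Itgb2 difference was largest, the median of the list was -0.11 and 6 of the 11 markers were lower with TCDD, while H2-Aa, a class II chain, was higher by 2.18. Itgal, the alpha chain of LFA-1, measured 4.64 to 5.26 on the 6 arrays, close above the controls, and its TCDD differences were 0.10, 0.03 and -0.19.

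**Figure D3:**
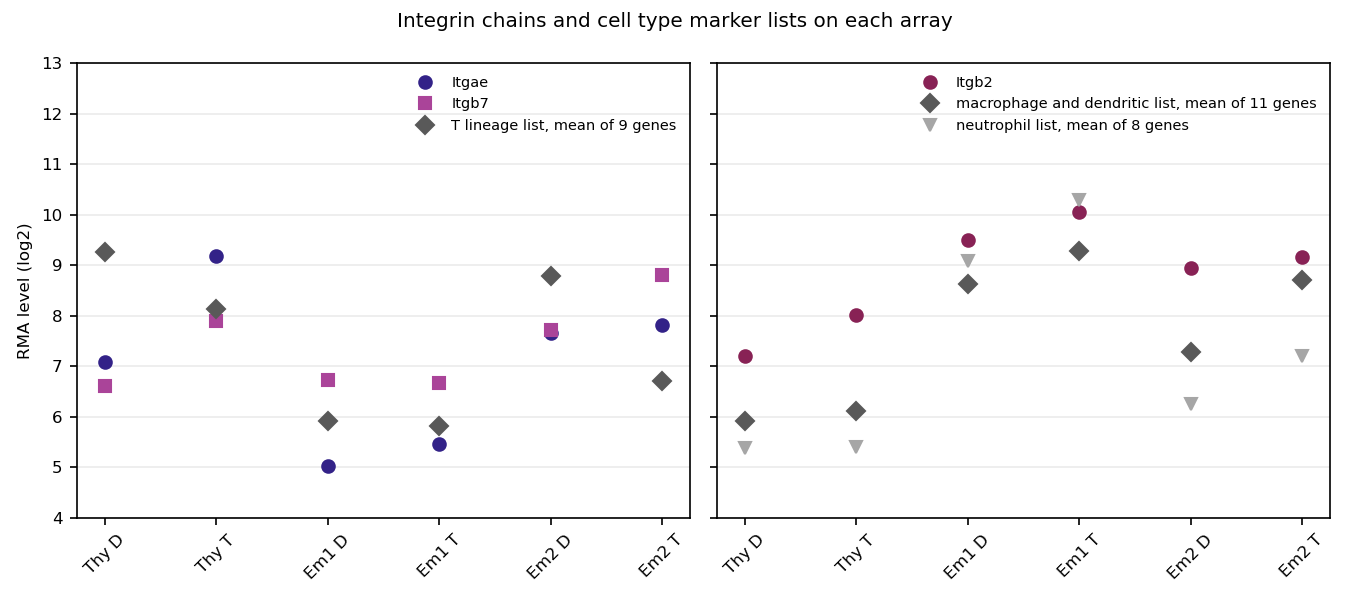
RMA level (log2) on each array of Itgae and Itgb7 beside the mean of 9 T-lineage markers (left) and of Itgb2 beside the means of 11 macrophage and dendritic and 8 neutrophil markers (right). Both emigrant arrays numbered 1 are low in Itgae (5.02 and 5.46) and in T-lineage markers (5.92 and 5.81), and the 4 emigrant arrays exceed both thymocyte arrays in Itgb2 and in both myeloid lists.

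The laminin and fibronectin receptor chains differed less. Itga6, the alpha chain of the laminin receptor, measured 6.81 and 6.30 in thymocytes, 6.92 and 6.52 in emigrant pair 1, and 6.79 and 6.89 in emigrant pair 2 (dioxane, then TCDD). Itgb1, the beta chain shared by alpha-4, alpha-5 and alpha-6, measured 6.39 and 6.28, 7.10 and 6.68, and 6.55 and 6.63 in the same order. Both were thus lower with TCDD in 2 pairs and about level in the third, with limma estimates over both sources of -0.27 ± 0.18 and -0.15 ± 0.19 (SE, both adjusted p = 0.999). Itga5 read 3.92 to 4.37, under the controls throughout, so its differences are bounded by background.

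Probe sets of 1 gene did not always give the same size. The dimmer probe set of Itga6 (1422444_at) had differences of -0.78, -0.13 and 0.68, against -0.50, -0.40 and 0.10 on the brighter one. That of Itgb1 next in brightness (1426918_at) had -1.43, -0.67 and -0.05, where its TCDD thymocyte value of 4.16 lay under the control of that array (4.46) and the difference is bounded there. The other 4 probe sets of Itgb1 read under the highest control on at least 5 of the 6 arrays. The deposited table does not give the transcript part that each probe set reads.

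**Figure D4:**
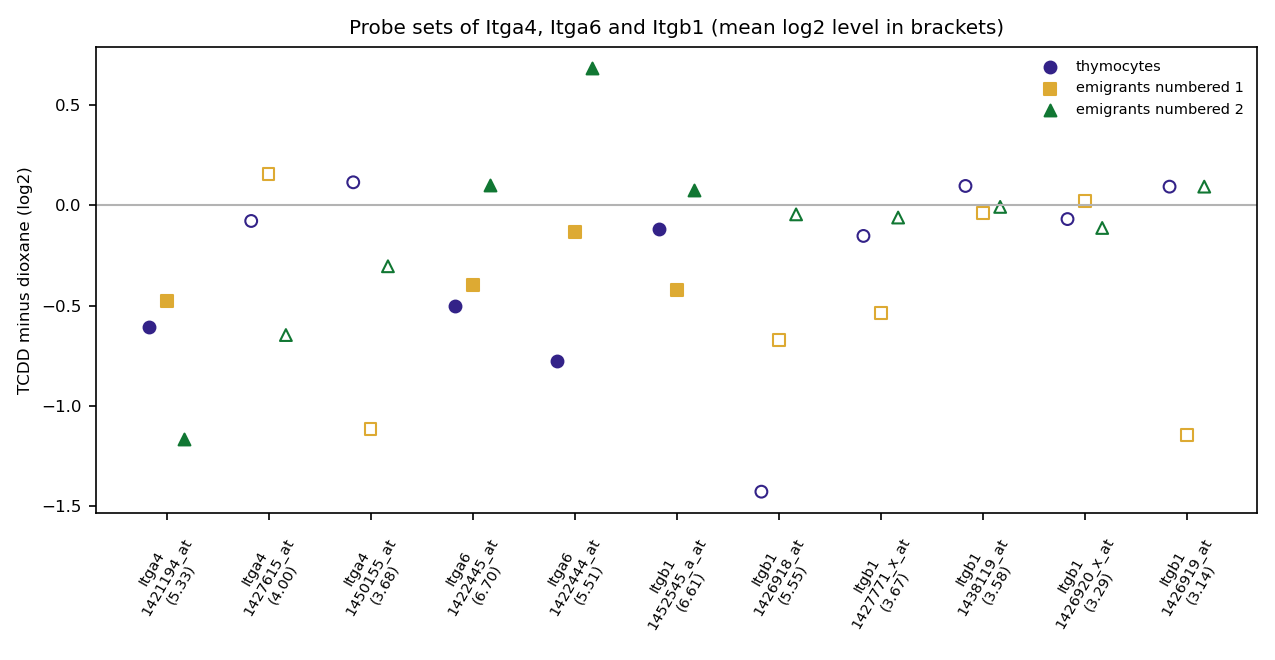
TCDD minus dioxane (log2) for each probe set of Itga4, Itga6 and Itgb1 in thymocytes (circles), emigrants numbered 1 (squares) and emigrants numbered 2 (triangles), with the mean level in brackets. Filled points belong to probe sets above the highest bacterial control on all 6 arrays, and open points to the rest. The lowest point is that of Itgb1 1426918_at in thymocytes (-1.43).

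The next question was whether emigrants differed from thymocytes, with treatment in the model. Itgb2 was higher on all 4 emigrant arrays (8.95 to 10.05) than on both thymocyte arrays (7.20 and 8.01), by 1.81 ± 0.33 log2 units (SE, n = 4 against 2), the smallest p of the 8 members. It did not pass over all genes (limma adjusted p = 0.325). Itgb1 was also higher on all 4 emigrant arrays (6.55 to 7.10) than on both thymocyte arrays (6.28 and 6.39), by 0.41 ± 0.21 (adjusted p = 0.806). These are 2 of 8 members with no overlap upward, beside 5.46% of all genes, and no member lay below in this way, beside 10.8%. limma called 0 of 12393 genes (0%), with 880 at an unadjusted p under 0.05 (7.1%), Itgb2 among them.

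Beta-2 is carried by leukocytes in general, and estimates of myeloid markers were also higher in emigrants. By the same estimate all 11 macrophage and dendritic markers and all 8 neutrophil markers were higher in emigrants, with medians of 2.60 and 2.71. Of all genes, 44% were above 0 by it. Among the neutrophil markers, Mpo, Elane and Prtn3 lay below both thymocyte arrays on the emigrant arrays numbered 2. Mpo read 4.92 and 4.72 there, against 5.03 and 5.16 in thymocytes, with dioxane first. The rest of the neutrophil list lay above both thymocyte arrays on the emigrant arrays numbered 2. Csf1r, the macrophage growth factor receptor, measured 8.64 to 12.59 on the emigrant arrays and 7.54 and 7.57 on the thymocyte arrays, and 10 of the 11 and 7 of the 8 markers were above the highest control on every array. The mean level of the macrophage and dendritic list was 7.29 to 9.28 in emigrants and 5.92 to 6.11 in thymocytes, and that of the neutrophil list 6.25 to 10.28 and 5.37 to 5.39. Against the thymocyte array of the same treatment, Itgb2 was higher by 2.30 (dioxane) and 2.04 (TCDD) in emigrants numbered 1 and by 1.74 and 1.14 in emigrants numbered 2. Without the arrays numbered 1 the estimate was 1.44 ± 0.20 (SE, limma adjusted p = 0.0997), and without those numbered 2 it was 2.17 ± 0.23 (adjusted p = 0.0215), where 225 of 12393 genes were called. The part of the myeloid markers in the Itgb2 difference was not tested.

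**Figure D5:**
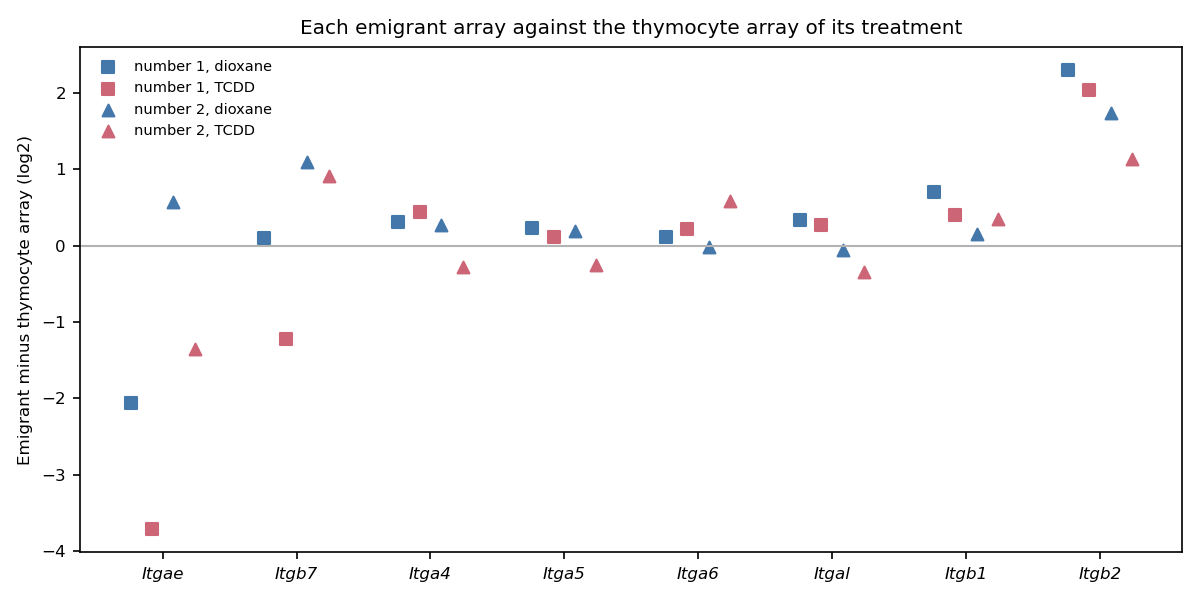
Level of each emigrant array minus the thymocyte array of the same treatment (log2), for emigrants numbered 1 (squares) and 2 (triangles) with dioxane (blue) and TCDD (red). All 4 points of Itgb2 and of Itgb1 lie above 0, and those of Itgae run from -3.72 to 0.57.

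Itgae ran the other way, at -1.64 ± 1.01 in emigrants against thymocytes (SE, limma adjusted p = 0.883). Single emigrant arrays differed by -2.06 and -3.72 for number 1 and by 0.57 and -1.36 for number 2, with dioxane first. Emigrants numbered 2 therefore overlapped with thymocytes, whose 2 arrays were themselves 2.10 apart. Without the TCDD thymocyte array the estimate was -0.75, and without the dioxane thymocyte array -2.54. It was -0.39 ± 0.53 without the emigrant arrays numbered 1 and -2.89 ± 0.43 without those numbered 2. The mean over the T-lineage markers was lowest on the arrays numbered 1 (5.92 and 5.81). It was 6.70 on the TCDD emigrant array numbered 2, where Itgae read 7.82. On the dioxane thymocyte array it was 9.27, where Itgae read 7.08. Of the 9 T-lineage markers 8 were lower in emigrants by the estimate over all 6 arrays, with a median of -1.82, beside 44% of all genes above 0. The part of these markers in the Itgae difference was not tested.

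Between the sources, Itgb7 did not share the direction of the Itgae estimate. Its array differences had the same order as those of Itgae, lowest for TCDD number 1 and highest for dioxane number 2. Its estimate was 0.22 ± 0.65 (SE, limma adjusted p = 0.995), with array differences of 0.10 and -1.23 for number 1 and of 1.10 and 0.91 for number 2. Without the arrays numbered 1 it was 1.01 ± 0.12 (adjusted p = 0.0997), and without those numbered 2 it was -0.56. Itga4, Itga5, Itga6 and Itgal differed by 0.05 to 0.22, with standard errors of 0.19 to 0.24. Over the 8 chains 7 estimates were above 0, with a median of 0.20 beside -0.04 over all genes, of which 44% were above 0.

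Whether the TCDD difference itself differed between the sources was tested with an interaction term. limma called 0 of 8 members and 0 of 12393 genes (0%), with 97 genes at an unadjusted p under 0.05 (0.783%). Itgae had the widest difference among the members, at -1.79 ± 2.05 for emigrants minus thymocytes (SE, adjusted p = 1), and Itgb7 had -0.76 ± 1.40. These intervals are wider than the differences, so neither an equal nor an unequal response could be shown with 1 thymocyte array per treatment.

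The genes whose pattern over the 6 arrays was most like that of Itgae were Mical1, F2r, Cd3g, Ccr9 and Gbp6, with root-mean-square distances of 0.54, 0.56, 0.59, 0.59 and 0.61 log2 units between centred levels. Cd3g, a chain of the T-cell receptor complex, measured 6.72 and 5.97 in emigrants numbered 1 and 8.97 to 9.61 on the other 4 arrays. Ccr9, the chemokine receptor of thymus and gut homing, measured 6.86 and 7.88 against 8.91 to 9.66. F2r, the thrombin receptor, measured 8.56 and 8.15 against 9.72 to 10.90. Mical1 (4.84 and 5.48) and Gbp6 (6.61 and 5.97) were also low on the emigrant arrays numbered 1, so all 5 genes shared this with Itgae. It follows from how they were picked, since likeness was measured on these same 6 arrays. Itgb7 ranked 253 among the 12392 other genes by this distance (1.03), and Itgb2 ranked 12153 (2.13).

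The other integrin chains, the ligands and the machinery that activates integrins were then read from lists. Of 14 measured further chains, 0 were called in any comparison; 3 were higher with TCDD in all 3 pairs and none was lower in all 3 (15.4% and 17.4% of all genes). The median TCDD estimate over both sources was 0.06, beside -0.02 over all genes. Those 3 were Itgb5, a partner of alpha-V, with 0.23, 0.24 and 0.51, Itgb2l with 0.07, 0.70 and 0.19, and Itga2, the collagen receptor chain, with 0.01, 0.12 and 0.06. The 3 dimmer probe sets of Itgb5 were also higher with TCDD in each pair, but they lay above the highest control on only 5, 4 and 1 of the 6 arrays.

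Of 18 measured ligand genes, 0 were called, and 3 were higher and 2 lower in all 3 pairs (15.4% and 17.4% of all genes). The median was 0.05, beside -0.02 over all genes. Fn1, fibronectin, which alpha-4 and alpha-5 bind, measured 7.27 and 7.72 in thymocytes, 9.77 and 12.53 in emigrant pair 1, and 6.60 and 8.15 in emigrant pair 2, with dioxane first. Its estimate of 1.59 ± 1.38 (SE, limma adjusted p = 0.999) was close to its error, since the emigrant numbers lay far apart. Icam1, a ligand of LFA-1, was higher by 1.49 in thymocytes (8.20 against 6.70), and by 0.17 and 0.06 in emigrants. Lama4, a laminin chain, was under the highest control on all arrays.

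Activation and adaptor genes numbered 32 measured, of which 0 were called. In all 3 pairs, 7 were higher and 3 lower (15.4% and 17.4% of all genes). The median was 0.12, beside -0.02 over all genes. Fermt3, kindlin-3, which leukocytes need to activate integrins, was higher by 0.87, 0.63 and 0.42 (0.64 ± 0.32, SE, limma adjusted p = 0.999), but its next probe set had 0.57, -0.05 and 0.09. Itgb1bp1, which binds the beta-1 tail, was higher by 0.21, 1.04 and 0.58, of which 1.04 is bounded by background, since the dioxane value of 4.27 lay under the control of its array (4.32). Fyb, the adaptor that links T-cell receptor signals to integrins, was lower by 1.00, 0.51 and 0.24 on the log2 scale.

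Genes of the TGF-beta pathway and of the Runx complex are of interest because TGF-beta signals and RUNX3 are known to switch on Itgae. Of 15 measured, 0 were called, and 4 were higher and 4 lower in all 3 pairs (15.4% and 17.4% of all genes). The median was 0.05, beside -0.02 over all genes. Tgfb3, a TGF-beta ligand, measured 5.29 and 7.39 in thymocytes, 4.82 and 5.50 in emigrant pair 1, and 5.06 and 5.78 in emigrant pair 2. Its 3 TCDD arrays lay above the 3 dioxane arrays, as did those of 3.47% of all genes (1.17 ± 0.33, SE, limma adjusted p = 0.811). Cbfb, the partner that RUNX proteins need to bind DNA, had its 3 TCDD arrays below the 3 dioxane arrays, as did 4.61% of all genes. It measured 10.37 and 9.79, 10.37 and 9.56, and 10.79 and 10.03, with dioxane first (-0.72 ± 0.21, SE, limma adjusted p = 0.811). Runx3 itself read 5.40 to 5.69, with TCDD differences of 0.07, 0.08 and 0.11. Smad2, a signal carrier of the pathway, was lower by 1.34, 0.29 and 0.54.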

How the data were processed

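The authors deposited log2 values per probe set, made by RMA per the submitters' processing notes and with the Bioconductor affy package per the series design text. Software versions were not given in the sources used here. Detection calls do not come with RMA, which also shrinks the differences of dim genes. No further normalisation was applied. Of 22690 probe sets, 64 controls, 691 that name several genes and 1555 that name none were left out. Probe set symbols came from the platform annotation.

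Linear models were fitted over all 12393 genes with limma 3.58.1 in R 4.3.3 (lmFit, eBayes), with Benjamini-Hochberg adjustment and calls under 0.05. They compared TCDD with dioxane in emigrants (2 residual degrees of freedom), TCDD with dioxane over both sources with source in the model (3), emigrants with thymocytes given the treatment (3), and the TCDD difference between the sources (2). Median standard errors were 0.288, 0.210, 0.223 and 0.500 log2 units. Thymocyte differences have no replicate and no test. A lone array in a model is assumed to scatter as the rest do. All members are named. From each related list, the 3 largest mean pair differences of 1 sign were named where none was called, with 5 genes most like Itgae. Runx3 was named outside this rule. Symbols on the lists without a single-gene probe set are not analysed here. The members and lists were chosen with earlier results of these data known. Alternatives were median centring, cyclic loess, genes at or above the median level, an intensity trend, every probe set on its own, the array number as a block and each array left out. Leaving out both emigrant arrays of a number was chosen after seeing the data. The code was tested on simulated data. The number of arrays limits the precision.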

Additional observations from a re-analysis of the deposited data

How the results depend on the processing

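No member was called in the TCDD comparisons or in the difference between the sources under any alternative run. Between emigrants and thymocytes, where 0 genes passed, 7 passed without the dioxane emigrant array numbered 2 (0 to 7 over the arrays left out, members 0 to 0), and without both emigrant arrays numbered 2 there were 225 genes with 2 members, Itgae (-2.89) and Itgb2 (2.17). The replicate block (array number in the model) called 160 genes there and 1 member, Itgb2 (2.17, adjusted p = 0.0304), and gave -0.56 for Itgb7. In that fit the thymocyte arrays carry number 1, so the estimate compares them with emigrants numbered 1. Differences between the numbers correlated at r = 0.56 over genes between dioxane and TCDD emigrants, but 2 numbers do not settle a pairing. The block changed no other call. Directions, none of them called, turned as follows. In emigrants, single omissions gave ranges of -1.02 to 1.62 (Itgae), -0.55 to 1.59 (Itgb7), -0.13 to 0.24 (Itga5), -0.33 to 0.034 (Itga6), -0.39 to 0.23 (Itgal), -0.44 to 0.10 (Itgb1) and -0.074 to 0.83 (Itgb2), and the other Itga6 probe set gave 0.28. Over both sources, Itgal ran from -0.18 to 0.17 and Itgb1 from -0.30 to 0.0086, Itgal was 0.0076 with cyclic loess and 0.064 without the emigrants numbered 2, and an Itgb1 probe set gave 0.017. Between the sources, omissions gave -0.18 to 0.74 (Itgb7), -0.066 to 0.21 (Itga5) and -0.069 to 0.20 (Itgal). Without the emigrants numbered 1, Itga4 was -0.0030, Itga5 -0.030 and Itgal -0.20, and without those numbered 2 Itgb7 was -0.56. Other probe sets gave -0.65 and -0.060 (Itga4) and -0.20 (Itga5). Of 325 member values, 291 kept direction and call. Some of these could not turn in direction. The level cut, the intensity trend and the brightest probe set fitted on its own use the same values, so their estimates are identical. The block also left the TCDD estimates unchanged. The causes of the turns were not tested. Signal near background limits Itga5, Itgal and Itga4.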

Other observations

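These genes were chosen after their values were seen. Cdh1, E-cadherin, the ligand of alpha-E beta-7, measured 7.42 on the TCDD thymocyte array, where Itgae was highest, and 4.33 on the dioxane thymocyte array, under the highest control there (4.72). On the emigrant arrays it read 3.59 to 4.45, and it was above the highest control on 2 of the 6 arrays in all. Vcam1, a ligand of alpha-4, measured 11.40 and 10.46 in emigrants numbered 1 with dioxane and TCDD, and 6.07 to 6.99 on the other 4 arrays. Of the alpha partners of beta-2, Itgam read 3.31 to 3.65, under the highest control on every array, including those rich in neutrophil transcripts. A reading under the control on the probe set used does not show that the Itgam transcript was absent. Itgax measured 6.33 to 7.39 in emigrants and 6.07 and 6.23 in thymocytes. Itgav, the alpha-V chain, was higher with TCDD by 0.87 in thymocytes and 0.92 in emigrants numbered 2, and differed by -0.02 in emigrants numbered 1.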
